A study of Mus musculus with 3 samples.

Results

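The cell cycle genes of mouse aortic immune cells were described here through 35 genes named in advance by symbol, out of 32285 genes in the files. They comprised 14 genes of DNA replication and nucleotide supply (the S genes), 18 genes of chromosome condensation and mitosis (the G2/M genes), and 3 broad genes, Stmn1, Tubb5 and Hmgb2, that are also found outside division. The data were single-cell RNA-seq of CD45+ immune cells taken from the infrarenal aorta of wild-type mice with CD45 and viability microbeads, as 1 pooled library per group. The library titled Sham came from mice given PBS, with 50 control aortas pooled. The library titled AAA_14 came from mice given elastase, which induces an abdominal aortic aneurysm, with 20 aortas pooled. The library titled AAA_7 is named for an aneurysm, but its treatment label is PBS, so its group is unsure; the unit of the 7 and the 14 in the titles and the age of the mice are not stated in the labels used here. With 1 library per group there was no replicate check and no test between groups, and every interval below covers counting error only.

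A cell that divides copies its DNA in S phase and then separates the copies in mitosis. In S phase the MCM proteins unwind the DNA, Pcna clamps the polymerases to it, and Tyms, Rrm1, Rrm2 and Tk1 supply nucleotides. Cdk1 with the A- and B-type cyclins drives entry into mitosis, the Aurora and Polo-like kinases build the spindle, and Cdc20 and Ube2c serve the ubiquitin ligase that ends mitosis. E2F factors act on promoters of many S genes, and the DREAM and MMB-FOXM1 complexes act on promoters of many G2/M genes through a short element called CHR, often together with CCAAT boxes that bind NF-Y. Lymphocytes divide when activated, B cells divide fast in germinal centres, and mature neutrophils do not divide.

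Because members of each group were higher together in B cells of AAA_14, upstream sequences of 4 G2/M and 2 S genes are shown, taken from the RefSeq promoter table on GRCm38.p6. Each stretch has 150 bases, lies upstream of the outermost annotated start and overlaps no annotated exon. The stretches are chr11:99024200-99024349 (minus strand) for Top2a, chr10:69352939-69353088 (minus) for Cdk1, chr2:164769748-164769897 (plus) for Ube2c, chr9:70421555-70421704 (minus) for Ccnb2, chr1:128359706-128359855 (minus) for Mcm6 and chr8:75109318-75109467 (plus) for Mcm5. Capitals mark matches on either strand to the CHR motifs TTTGAA or TTCGAA, to CCAAT, or to the E2F-type motifs TTTCCCGC, TTTGGCGC, TTTCCCGG or TTTGGCGG.
Top2a: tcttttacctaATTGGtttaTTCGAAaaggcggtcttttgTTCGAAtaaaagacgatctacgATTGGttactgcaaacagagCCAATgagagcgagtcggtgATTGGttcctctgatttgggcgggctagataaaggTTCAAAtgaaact
Cdk1: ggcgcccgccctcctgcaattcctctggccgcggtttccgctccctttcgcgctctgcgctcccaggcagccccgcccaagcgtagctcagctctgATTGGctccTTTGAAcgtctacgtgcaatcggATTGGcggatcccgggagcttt
Ube2c: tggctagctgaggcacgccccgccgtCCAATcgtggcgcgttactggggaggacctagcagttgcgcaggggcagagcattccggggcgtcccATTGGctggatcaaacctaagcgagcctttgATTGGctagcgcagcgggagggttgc
Ccnb2: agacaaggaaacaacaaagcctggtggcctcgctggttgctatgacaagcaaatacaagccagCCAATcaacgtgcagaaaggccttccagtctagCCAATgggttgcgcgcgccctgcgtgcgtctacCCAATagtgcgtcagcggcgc
Mcm6: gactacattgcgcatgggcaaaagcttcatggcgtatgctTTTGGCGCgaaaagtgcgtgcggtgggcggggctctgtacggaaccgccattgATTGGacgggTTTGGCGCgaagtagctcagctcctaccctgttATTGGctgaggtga
Mcm5: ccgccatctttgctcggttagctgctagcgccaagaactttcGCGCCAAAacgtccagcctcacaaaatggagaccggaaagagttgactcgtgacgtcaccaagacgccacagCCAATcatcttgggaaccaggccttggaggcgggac

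The 4 G2/M stretches held CCAAT matches and no E2F-type match: 4 in Top2a, 2 in Cdk1, 3 in Ube2c and 3 in Ccnb2. Top2a also held 3 CHR matches and Cdk1 held 1. The S stretches held E2F-type matches, 2 in Mcm6 and 1 in Mcm5, beside 2 and 1 CCAAT matches. In the 250 bases before the start, 29 of the 35 members matched the promoter table. A CCAAT match was present in 13 of the 15 matched G2/M genes and 10 of the 12 matched S genes, against 37.5% of all 27025 genes. A CHR match was present in 7 of 15 G2/M and 2 of 12 S genes, against 19.6% of all genes. An E2F-type match was present in 1 of 15 G2/M and 3 of 12 S genes, against 3.10% of all genes. A match describes letters in this window and shows no binding.

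The 3 libraries held 3785 (Sham), 3496 (AAA_7) and 10108 (AAA_14) barcodes and 13677839, 13341534 and 67243700 UMIs (unique molecular identifiers, each counting 1 captured RNA). Barcodes with at least 200 genes and at most 10% mitochondrial UMIs were kept, which left 1235, 3229 and 5286 cells. The mitochondrial limit removed 66.9%, 7.52% and 47.2% of barcodes, in the same order, and median UMIs per kept cell were 3659, 2581 and 6967.5. Ptprc, which encodes CD45, had a UMI in 92.5%, 84.0% and 93.5% of kept cells. Libraries shared 12 barcodes at most, of which 8 were kept in both. The 35 members took 0.227%, 0.183% and 0.287% of UMIs. Cells were assigned to immune classes from marker genes that include no cell cycle gene. In the T, B, NK and plasma cells with 50 or more cells in a library, every marker of the class had a UMI in over 10% of cells. Classes under 50 cells in a library get no share of their own there, which leaves out Sham phagocytes (macrophages and monocytes, 12 cells).

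A cell with at least 2 UMIs of Mki67, Top2a and Cdk1 together was called dividing. By this gate, 52 of 1235 Sham cells divided (4.21%, 95% Clopper-Pearson interval 3.16 to 5.49), 109 of 3229 AAA_7 cells (3.38%, 2.78 to 4.06) and 499 of 5286 AAA_14 cells (9.44%, 8.66 to 10.3). The AAA_14 share lay above both others, and those of Sham and AAA_7 overlapped. The log2 odds ratio was 1.23 (0.82 to 1.70) for AAA_14 over Sham, 1.57 (1.27 to 1.90) for AAA_14 over AAA_7 and -0.34 (-0.83 to 0.18) for AAA_7 over Sham. The gate finds more cells where more UMIs are read, so each cell was also thinned to 2000 UMIs, which left out 132, 1169 and 202 shallower cells. The expected shares were then 2.55% (1.70 to 3.66), 2.62% (1.97 to 3.40) and 4.18% (3.65 to 4.77). The order between AAA_14 and the others was the same, with smaller gaps. At this depth the AAA_14 interval overlapped that of Sham at its edge and lay above that of AAA_7.

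B cells showed the widest gap between libraries. The gate found 6 of 415 B cells in Sham (1.45%, 0.532 to 3.12), 8 of 449 in AAA_7 (1.78%, 0.772 to 3.48) and 151 of 1263 in AAA_14 (11.96%, 10.2 to 13.9). The log2 odds ratio was 3.10 (2.04 to 4.69) for AAA_14 over Sham and 2.82 (1.87 to 4.15) for AAA_14 over AAA_7. At 2000 UMIs per cell the expected shares were 0.933%, 2.99% and 7.38%, and the log2 odds ratios 2.87 and 1.26; AAA_7 kept only 186 of its 449 B cells at that depth, and its interval (1.05 to 6.57) overlapped that of AAA_14 (5.97 to 9.0). The mitochondrial limit bore on the level: at a limit of 20% the shares were 0.816%, 1.77% and 5.84%, and with no limit 0.784%, 1.77% and 5.27%. Median mitochondrial shares of the kept B cells were 8.97% in Sham, 2.05% in AAA_7 and 8.40% in AAA_14. The part of depth and mitochondrial share in the differences between libraries was not tested beyond these values.

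T cells divided in all 3 libraries. The gate found 24 of 441 (5.44%, 3.52 to 7.99) in Sham, 28 of 508 (5.51%, 3.69 to 7.87) in AAA_7 and 84 of 916 (9.17%, 7.38 to 11.2) in AAA_14. The log2 odds ratio was 0.79 (0.12 to 1.55) for AAA_14 over Sham and 0.78 (0.13 to 1.48) for AAA_14 over AAA_7. At 2000 UMIs per cell the expected shares were 3.10%, 4.32% and 3.86%, with overlapping intervals, and the AAA_14 over AAA_7 log2 odds ratio turned to -0.19. The mitochondrial limit bore on the AAA_14 level here too: at a limit of 5% the shares with all UMIs were 5.80% (3.89 to 8.27) in AAA_7 and 41.1% (28.1 to 55.0) in AAA_14, a log2 odds ratio of 3.49, and with no limit they were 3.95%, 5.48% and 7.57% in the 3 libraries. The 5% limit kept a minority of AAA_14 T cells, whose median mitochondrial share was 7.63%, and left Sham under 50 T cells. In AAA_14 this median was 6.09% in dividing T cells and 7.82% in T cells without a gate UMI. Dividing T cells had a median of 15395, 7018.5 and 13387.5 UMIs in Sham, AAA_7 and AAA_14, against 4287, 2672 and 6023 in T cells without a gate UMI.

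**Figure D1:**
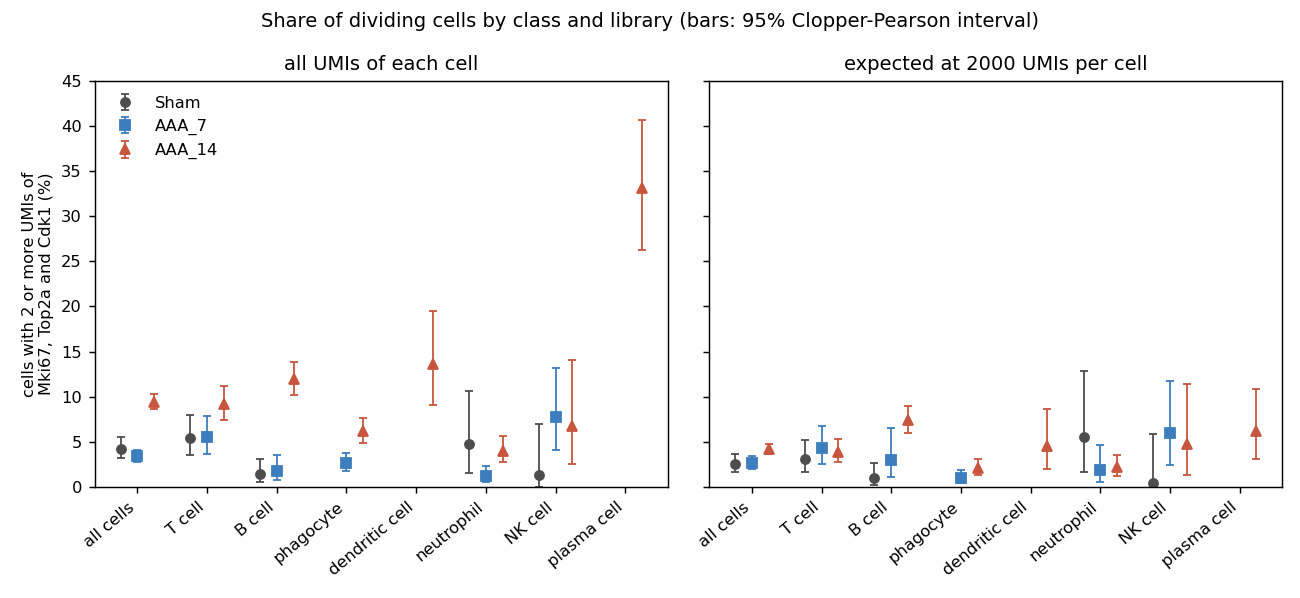
Share of dividing cells (y axis, % of cells with at least 2 UMIs of Mki67, Top2a and Cdk1) by class and library (x axis); the left panel uses all UMIs and the right panel the share expected at 2000 UMIs per cell, with 95% Clopper-Pearson bars. B cells of AAA_14 stay above Sham in both panels (11.96% against 1.45%, and 7.38% against 0.933%), while the T cells of the 3 libraries overlap in the right panel.

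Among phagocytes the gate found 26 of 995 cells in AAA_7 (2.61%, 1.71 to 3.81) and 73 of 1188 in AAA_14 (6.14%, 4.85 to 7.66), a log2 odds ratio of 1.27 (0.61 to 2.0). At 2000 UMIs the expected shares were 0.958% and 2.11%, and their intervals, 0.411 to 1.89 and 1.36 to 3.12, overlapped. Dendritic cells had 50 or more cells in AAA_14 alone, where 25 of 183 divided (13.7%, 9.04 to 19.5; 4.54% expected at 2000 UMIs). Plasma cells of AAA_14 had the highest share by all UMIs, 58 of 175 (33.1%, 26.2 to 40.6), and also the deepest cells, with a median of 27432 UMIs; the expected share at 2000 UMIs was 6.20% (3.10 to 10.9), which overlapped that of B cells.

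NK cells divided in 1 of 78 cells in Sham (1.28%, 0.0325 to 6.94), 12 of 154 in AAA_7 (7.79%, 4.09 to 13.2) and 6 of 89 in AAA_14 (6.74%, 2.51 to 14.1). These intervals overlapped, and the log2 odds ratio over Sham was 2.18 (-0.11 to 8.14) for AAA_7 and 2.01 (-0.63 to 8.02) for AAA_14. Neutrophils divided in 5 of 106 cells in Sham (4.72%, 1.55 to 10.7), 8 of 664 in AAA_7 (1.20%, 0.522 to 2.36) and 30 of 747 in AAA_14 (4.02%, 2.73 to 5.68). The AAA_14 over AAA_7 log2 odds ratio in neutrophils was 1.72 (0.61 to 3.12) with all UMIs and 0.14 at 2000 UMIs.

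Free RNA in the droplets can give a cell UMIs of genes it does not express. Mature neutrophils, here those with a Cxcr2 UMI and no UMI of granule or precursor genes, reached the gate in 1 of 32 cells in Sham, 4 of 312 in AAA_7 (1.28%) and 1 of 295 in AAA_14 (0.339%), at median depths of 2243.5, 1757.5 and 3184 UMIs. Stromal and endothelial cells of AAA_14, at a median of 13459 UMIs, reached it in 0 of 86, which allows a share of up to 3.49%. The B cell shares of Sham and AAA_7 lay near this background, and the AAA_14 shares of B, T, phagocyte, dendritic and plasma cells lay above it, while the AAA_7 phagocyte interval overlapped it. Depth differed in this comparison, so it was also made at 2000 UMIs. There the expected background was 0.144% (up to 1.62) in AAA_14 mature neutrophils and 0% (up to 4.51) in stromal and endothelial cells. The stromal interval overlapped those of AAA_14 T cells (2.70 to 5.34), phagocytes (1.36 to 3.12), dendritic cells (2.01 to 8.64) and plasma cells, the neutrophil interval overlapped that of phagocytes, and the B cell interval lay above both. The kinds of cells that serve as background were chosen after values were seen.

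The dividing cells were of different classes in the 3 libraries. T cells made up 46.2%, 25.7% and 16.8% of dividing cells in Sham, AAA_7 and AAA_14. B cells made up 11.5%, 7.34% and 30.3%, phagocytes 3.85%, 23.9% and 14.6%, and plasma cells 1.92%, 3.67% and 11.6%. Barcodes with markers of 2 classes, which were left out of every class, held 15.4%, 10.1% and 11.4% of dividing cells.

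Dividing cells were then compared with cells of the same class and library that had no gate UMI, as a description. In AAA_14 B cells the dividing cells were rich in germinal-centre genes. They were also deeper, at a median of 17128 UMIs against 4154 in cells without a gate UMI. Mef2b, a germinal-centre transcription factor, had a UMI in 67.5% of the 151 dividing cells and 5.36% of the 1045 others, at 188 and 20.1 CPM (UMIs of a gene scaled to a common total of UMIs). Gcsam, a germinal-centre signalling protein, had a UMI in 43.0% and 1.15%, at 85.1 and 3.54 CPM. Ighd, the IgD chain of naive B cells, went the other way, at 147 CPM in dividing and 1154 CPM in other cells. Jchain, of antibody-secreting cells, was at 522 and 105 CPM.

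B cells were therefore split by Mef2b, Rgs13, S1pr2 and Gcsam, a split chosen after these values were seen. With UMIs of 2 or more of these genes, 99 of 142 AAA_14 B cells divided (69.7%, 61.5 to 77.1), against 52 of 1121 without (4.64%, 3.48 to 6.04). At 2000 UMIs for the gate, with the split still made on all UMIs, the expected shares were 42.8% and 2.66%. AAA_7 had 3 such B cells, all dividing, and Sham had 2, of which 1 divided. The gene set and the depth moved together: median UMIs were 15356.5 with and 4216 without these genes in AAA_14. Without these cells the AAA_14 over Sham log2 odds ratio for B cells was 1.87 (0.66 to 3.68). Clusters were made without the 35 members and the other cell cycle genes listed below. Further genes that go with division were not taken out, so a cluster can in part reflect division itself. In them, 1 B cell cluster, with H1fx, Gcsam and S1pr2 among its leading genes, held 186 AAA_14 cells, 125 of them dividing. The cluster with most AAA_14 B cells had 18 dividing of 848. Sham had 5 cells in the first of these clusters and AAA_7 had 7.

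In T cells, Ctla4, Pdcd1 and Foxp3 had higher levels in dividing than in other cells of each library. Ctla4, an inhibitory receptor, was at 118 CPM in dividing and 64.5 CPM in other T cells of Sham, 584 and 239 in AAA_7, and 237 and 139 in AAA_14. Pdcd1, the PD-1 receptor, was at 29.5 and 7.22 CPM in Sham, 59.9 and 23.3 in AAA_7, and 58.1 and 31.5 in AAA_14. Foxp3, the regulatory T cell factor, was at 63.0 and 8.25 CPM in Sham, 92.8 and 38.1 in AAA_7, and 46.0 and 36.6 in AAA_14. Icos, a costimulatory receptor, did not keep to this order, at 130 and 155 CPM in Sham, 476 and 418 in AAA_7 and 310 and 209 in AAA_14. Cd8a was lower in dividing cells, at 27.6 and 126 CPM in Sham, 71.9 and 149 in AAA_7, and 107 and 157 in AAA_14. Lef1, of naive and memory T cells, was lower too, at 106 and 456, 89.8 and 293, and 106 and 350 CPM. Rag1 and Ptcra, of developing thymocytes, had no UMI in any dividing T cell, and Dntt, also of thymocytes, had one in 3 of the 84 dividing T cells of AAA_14 (3.57%, against 1.89% of the others) and in 0 of those of Sham and AAA_7.

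T cells with UMIs of 2 or more of Foxp3, Il2ra and Ctla4, again a split made after values were seen, divided in 10 of 23 cells in Sham (43.5%, 23.2 to 65.5), 8 of 44 in AAA_7 (18.2%, 8.19 to 32.7) and 22 of 123 in AAA_14 (17.9%, 11.6 to 25.8). The other T cells divided in 14 of 418 (3.35%), 20 of 464 (4.31%) and 62 of 793 (7.82%). At 2000 UMIs for the gate the expected shares were 28.5%, 14.6% and 7.23% with these genes and 1.70%, 3.30% and 3.34% without. In all 3 libraries most dividing T cells lay outside this small set. In the clusters, the T cell cluster led by Foxp3, Tnfrsf4 and Ikzf4, among others, had dividing counts of 13 of 30, 20 of 148 and 59 of 287 cells, in the same order of libraries. The cluster with Igfbp4, Dapl1 and Lef1 among its leading genes had 10 of 355, 5 of 220 and 14 of 463.

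Dividing neutrophils of AAA_14 differed from the others in genes of granulocyte stages. Camp, a granule protein made in the bone marrow stages, was at 46759 CPM in the 30 dividing and 8586 CPM in the 688 other neutrophils. Fcnb had a UMI in 73.3% and 3.20% of these cells, at 354 and 23.6 CPM. Ms4a3 had one in 56.7% and 1.02%, at 99.8 and 2.09 CPM. Median depth was 21167 UMIs in the dividing and 3612.5 in the other neutrophils. Genes of the earliest granules were mixed: Elane had a UMI in 2 of the 30 dividing cells, Mpo in 1 (1.64 CPM, against 2.39 in the others) and Ctsg in 0. Prtn3, also of these granules, had one in 33.3% of dividing and 3.20% of other cells, at 58.9 and 9.56 CPM. The class rule set apart 4 AAA_14 cells as granulocyte precursors by such markers, all 4 dividing, so rarity within the neutrophil class is partly built in. Il1b, of activated mature neutrophils, was at 316 and 6874 CPM, and Cxcr2, the receptor that brings mature neutrophils out of the marrow, at 99.8 and 753 CPM. With a UMI of Elane, Mpo, Prtn3, Ms4a3, Ctsg or Fcnb, 24 of 82 AAA_14 neutrophils divided (29.3%, 19.7 to 40.4), against 6 of 665 without (0.902%, 0.332 to 1.95). In Sham these were 2 of 4 and 3 of 102, and in AAA_7 3 of 12 and 5 of 652. Depth moved with this split too: median UMIs in AAA_14 were 10773 with and 3608 without these genes. At 2000 UMIs for the gate the expected AAA_14 shares were 17.7% and 0.218%.

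Among AAA_14 dendritic cells, Xcr1, of the cross-presenting type, was at 432 CPM in dividing and 206 CPM in other cells, but Clec9a, of the same type, was at 164 and 170 CPM. Siglech, of plasmacytoid dendritic cells, was at 41.4 and 528 CPM, and Ccr7, of migrating ones, at 33.1 and 458 CPM. With Xcr1 or Clec9a, 21 of 125 divided (16.8%, 10.7 to 24.5), against 4 of 58 without (6.90%, 1.91 to 16.7), and these intervals overlapped. Median UMIs were 18076 with and 10981 without. In phagocytes, Mrc1, the mannose receptor of resident-type macrophages, was at 552 and 640 CPM in AAA_7 and 713 and 771 in AAA_14, and Ly6c2, of inflammatory monocytes, was at 81.1 and 397 in AAA_7 and 508 and 757 in AAA_14. Lyve1, of resident-type macrophages, was at 18.7 and 62.6 CPM in AAA_7 and 93.1 and 122 in AAA_14. Cx3cr1 went the other way, at 203 and 145 CPM in AAA_7 and 262 and 180 in AAA_14. Trem2 and C1qa changed side between libraries. Trem2 was at 384 and 221 CPM in AAA_7 and 122 and 128 in AAA_14, and C1qa at 2670 and 2954 and at 3771 and 3417.

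**Figure D2:**
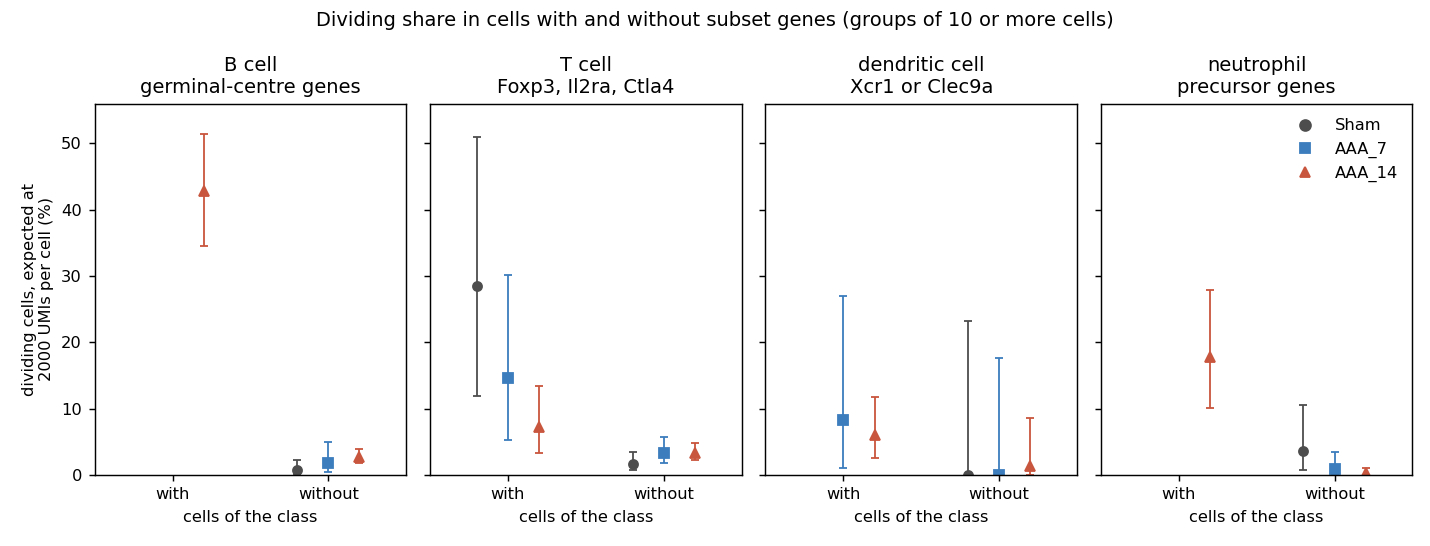
Share of cells expected to divide at 2000 UMIs per cell (y axis, %) in cells with and without the subset genes named above each panel (x axis), by library, with 95% Clopper-Pearson bars; groups under 10 cells are not drawn. In AAA_14 the cells with germinal-centre or precursor genes (42.8% and 17.7%) lie above those without (2.66% and 0.218%).

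Levels of the members were then taken from summed UMIs of each class, in CPM. Such a sum cannot tell more dividing cells from more RNA per cell. UMIs from the same cell are not independent, so the intervals of such sums and of their ratios are too narrow for a comparison of cells. In Sham, T cells had the highest level of all 14 S genes and of 17 of the 18 G2/M genes among 4 classes. In AAA_7, T cells were highest for 8 S and 8 G2/M genes, NK cells for 6 and 8, and B cells for 2 G2/M genes, among 5 classes. In AAA_14, B cells were highest for 12 of 14 S and for all 18 G2/M genes among 7 classes. Summed over the S genes, B cells were at 366 CPM (exact Poisson 95% interval 334 to 400) in Sham, 563 (519 to 610) in AAA_7 and 1564 (1539 to 1590) in AAA_14. Summed over the G2/M genes they were at 245 (219 to 273), 417 (379 to 458) and 1712 (1686 to 1739) CPM. T cells were near 1 level throughout: 915, 1027 and 1029 CPM for the S genes, and 715, 744 and 695 CPM for the G2/M genes.

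**Figure D3:**
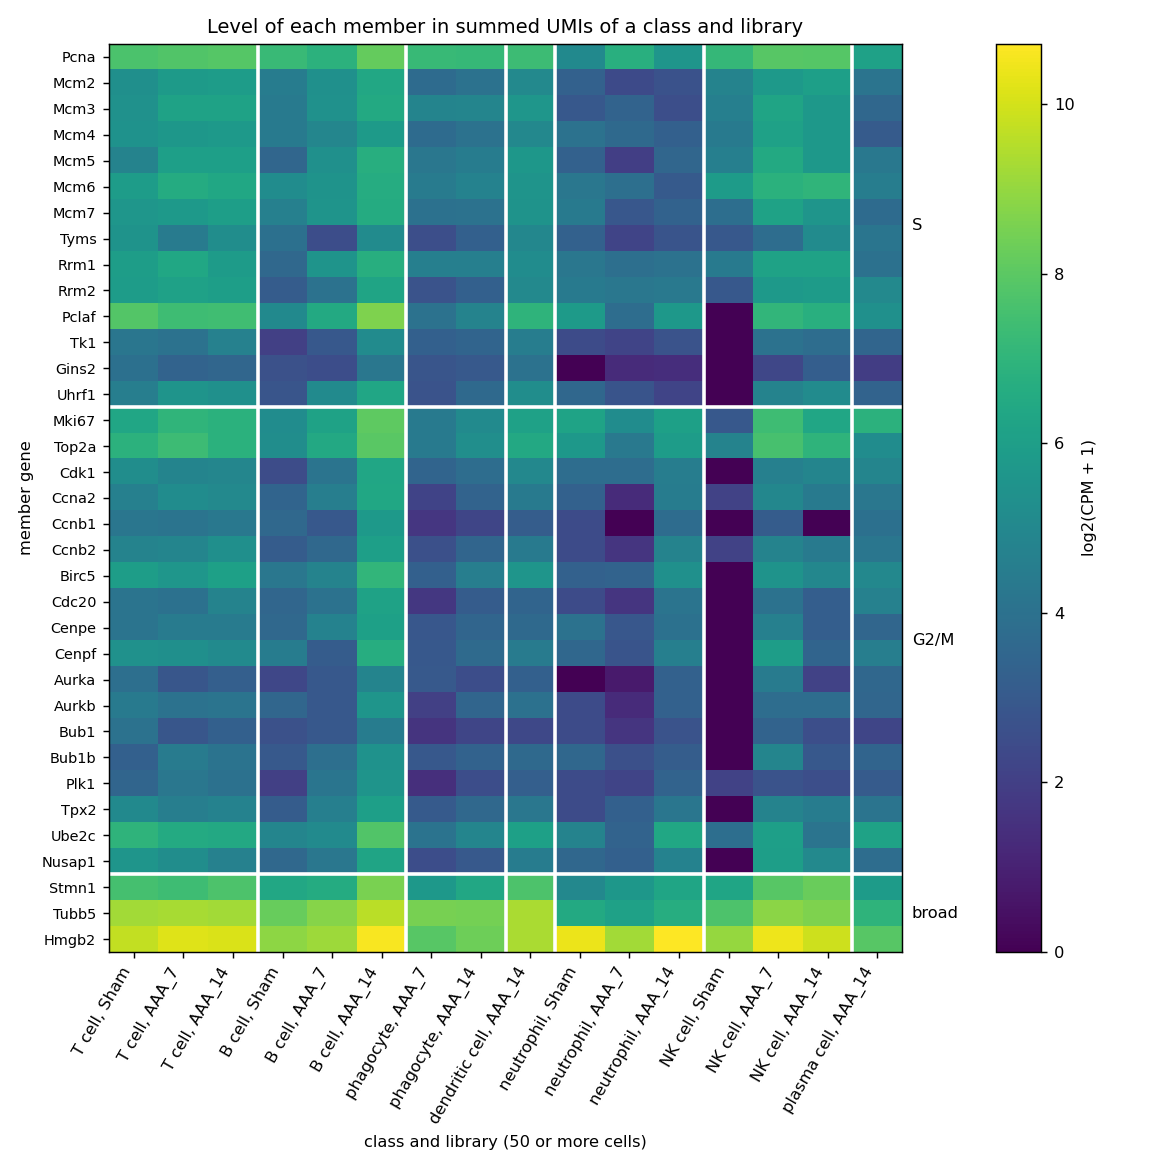
Level of each of the 35 members (rows) as log2(CPM + 1) of summed UMIs, for classes with 50 or more cells in a library (columns). B cells of AAA_14 are bright across the S and G2/M rows (264 CPM for Mki67, against 35.7 in Sham), T cells are alike in the 3 libraries, and Sham NK cells are dark in most G2/M rows.

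In B cells the replication genes were higher in AAA_14 than in Sham. Pclaf, the Pcna-binding factor, was at 32.7, 90.3 and 395 CPM in Sham, AAA_7 and AAA_14, a log2 ratio of 3.58 (exact conditional 95% interval 3.16 to 4.06) for AAA_14 over Sham. Uhrf1, which carries DNA methylation onto the new strand, was at 6.08, 34.2 and 79.8 CPM (3.63, 2.73 to 4.93), and Mcm5, a subunit of the helicase, at 10.6, 40.9 and 105 CPM (3.26, 2.55 to 4.18). Both were higher in AAA_14 than in AAA_7 and higher in AAA_7 than in Sham. Rrm2, of ribonucleotide reductase, was at 7.61, 15.2 and 76.3 CPM. Pcna, which was also found in non-dividing cells, was at 152, 118 and 291 CPM, with the smallest S ratio for AAA_14 over Sham (0.93, 0.73 to 1.15).

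Mitotic genes of B cells were also higher in AAA_14, among them the 3 gate genes Cdk1, Mki67 and Top2a. Cdk1 was at 4.56, 16.2 and 80.8 CPM in Sham, AAA_7 and AAA_14 (log2 ratio 4.03, 3.02 to 5.60, for AAA_14 over Sham). Mki67, the coat of mitotic chromosomes, was at 35.7, 70.4 and 264 CPM (2.87, 2.47 to 3.33), and Top2a, which untangles DNA before chromosomes part, at 37.3, 87.5 and 250 CPM (2.73, 2.34 to 3.19). Plk1, the Polo-like kinase, was at 3.04, 17.1 and 45.5 CPM (3.73, 2.54 to 5.78). Cenpf, a kinetochore protein, was lowest in AAA_7, at 21.3, 7.61 and 101 CPM, and Ccnb1, cyclin B1, was at 11.4, 6.66 and 54.6 CPM.

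Counted at 2-fold, among genes whose UMIs in the compared pair summed to 10 or more, 13 of 14 S and 18 of 18 G2/M genes were higher in B cells of AAA_14 than of Sham, where 22.1% of the 11495 genes tested were, and 0 were lower, as 6.39% of all genes were. Median log2 ratios were 2.04 for the S and 2.72 for the G2/M genes, against 0.30 over all genes; centred on the median gene, 15.4% of genes were higher and 10.4% lower. AAA_14 over AAA_7 gave 13 of 14 and 18 of 18 (11.3% of all genes), with medians of 1.25 and 1.98 against 0.04. AAA_7 over Sham gave 6 of 14 and 7 of 18 (16.7% of all genes, with 5.91% lower; 11.4% and 9.37% when centred on the median gene, where the member count fell to 7 of 32, against 22 at a mitochondrial limit of 20%), with Uhrf1 (2.42, 1.36 to 3.81) and Plk1 (2.36, 0.89 to 4.51) farthest up and Tyms (-1.50, -3.38 to -0.13) and Cenpf (-1.42, -2.83 to -0.31) at least 2-fold lower. Each pair of these comparisons shares a library. The G2/M genes include the 3 gate genes, so their values are not independent of the dividing shares. The 15 G2/M genes outside the gate were all at least 2-fold higher for AAA_14 over Sham and over AAA_7. Without the B cells with germinal-centre genes, 21 of the 32 S and G2/M genes were at least 2-fold higher for AAA_14 over Sham, 20 for AAA_14 over AAA_7 and 4 for AAA_7 over Sham, where only 3 cells were left out of AAA_7. The shares of all genes in this setting were 17.4%, 7.85% and 16.4%, so that the AAA_7 over Sham count lay below its background. The broad genes followed: Stmn1, which loosens microtubules, was at 83.7, 95.1 and 380 CPM, Tubb5, a tubulin, at 299, 430 and 786, and Hmgb2, a chromatin protein, at 470, 560 and 1543.

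In T cells few members were past 2-fold. For AAA_14 over Sham, 1 of 32 S and G2/M genes was at least 2-fold higher, where 26.1% of the 11649 genes tested were, and 0 were lower, as 3.25% of genes were. The 1 gene was Mcm5, at 26.6, 64.9 and 64.4 CPM in Sham, AAA_7 and AAA_14 (log2 ratio 1.27, 0.91 to 1.66). Medians were 0.34 for the S and 0.00 for the G2/M genes, below the median of 0.48 over all genes; centred on it, 13.6% of genes were higher and 7.88% lower, and 3 members were lower and 0 higher. Mki67 was at 79.3, 129 and 113 CPM (0.51, 0.29 to 0.74), Top2a at 118, 163 and 112 (-0.07, -0.26 to 0.13), and Nusap1, a spindle protein, at 47.7, 37.0 and 25.3 (-0.92, -1.26 to -0.57). AAA_7 over Sham had 3 members at least 2-fold lower, Tyms, Aurka and Bub1, where 4.12% of genes were lower. It also had 1 S and 1 G2/M gene at least 2-fold higher, where 25.7% of genes were. The lower count was 0 with 5 counts added, at a mitochondrial limit of 20% and at 1000 UMIs. AAA_14 over AAA_7 had 0 higher and 0 lower, where 4.99% and 4.66% of genes were.

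In phagocytes the G2/M genes, more than the S genes, were higher in AAA_14 than in AAA_7. At 2-fold, 0 of 14 S and 5 of 18 G2/M genes were higher, where 8.15% of the 12546 genes tested were and 3.96% were lower (6.62% and 4.97% when centred on the median gene), and medians were 0.27 and 0.82 against 0.12 over all genes. The 5 were Aurkb, the chromosomal passenger kinase, at 3.06 CPM in AAA_7 and 10.4 in AAA_14 (log2 ratio 1.73, 1.05 to 2.56), Cdc20 at 2.38 and 7.76 (1.66, 0.90 to 2.63), Ccna2 at 3.40 and 9.72 (1.49, 0.83 to 2.28), Plk1 at 1.70 and 4.82 (1.45, 0.53 to 2.63) and Birc5, the passenger protein survivin, at 8.66 and 22.7 (1.38, 0.96 to 1.85). Pcna was at 147 and 146 CPM. Without the cell with most member UMIs in each library, 8 genes rather than 5 were past 2-fold.

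**Figure D4:**
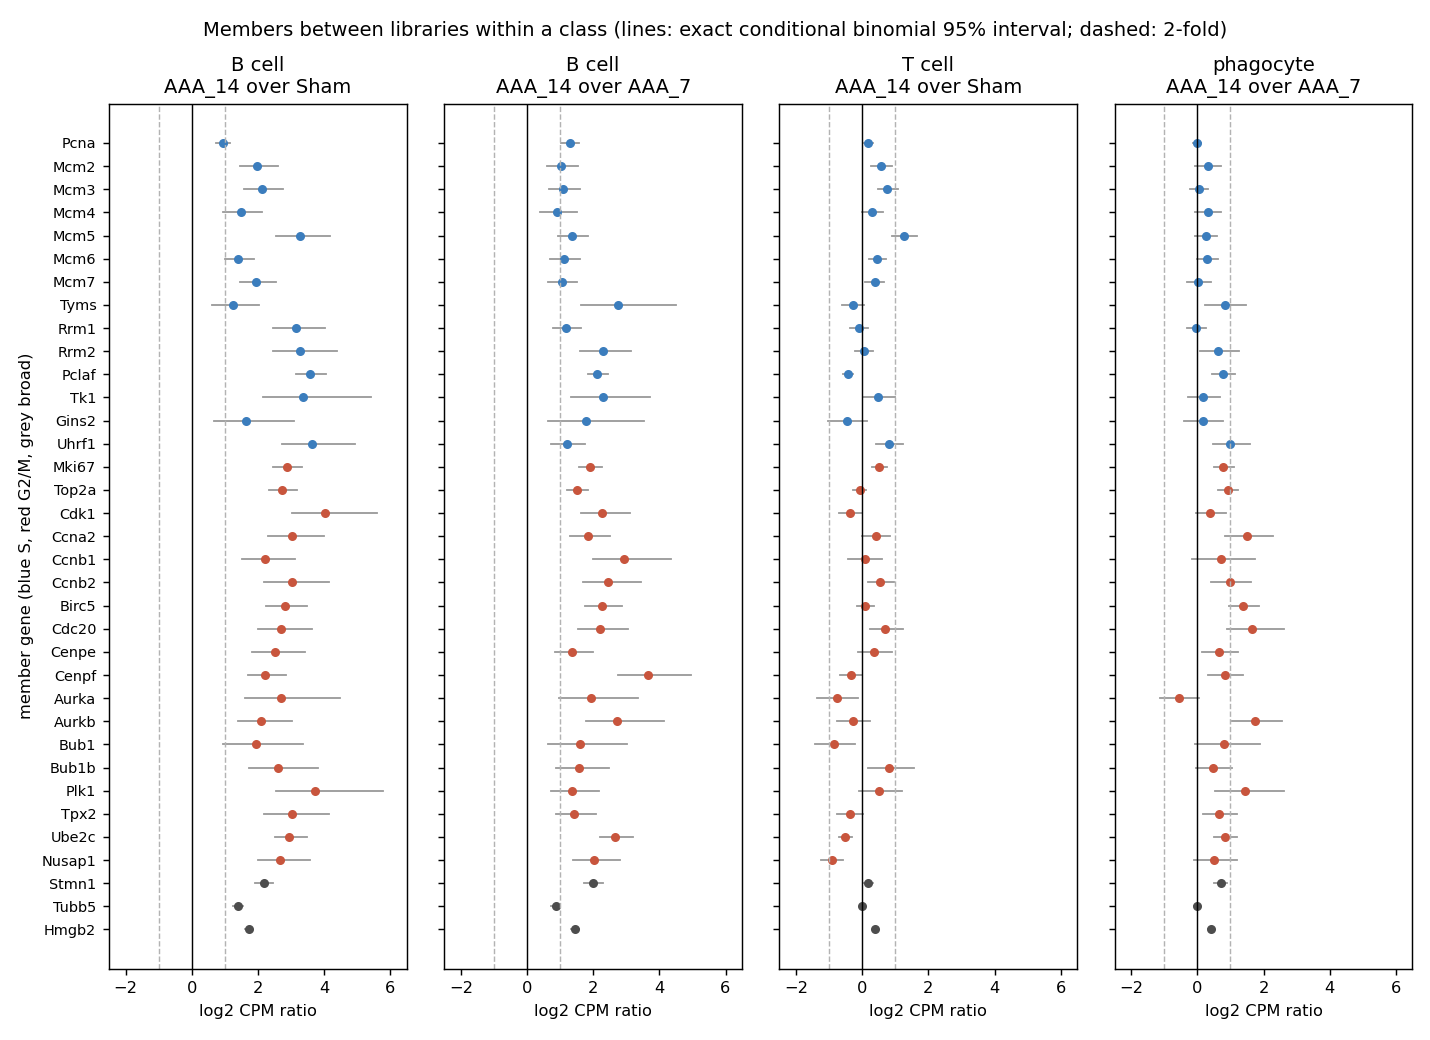
Log2 CPM ratio of each member (x axis) for 4 pairs of class and libraries, with exact conditional binomial 95% intervals; blue marks S, red G2/M and grey broad genes, and dashed lines mark 2-fold. The B cell panels lie to the right (medians 2.04 and 2.72 for S and G2/M over Sham), the T cell panel lies around 0, and in phagocytes the G2/M points lie right of the S points (medians 0.82 and 0.27).

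NK cells of Sham were low in G2/M genes. They held 17 UMIs of 6 of the 18 G2/M genes, 57.1 CPM (33.2 to 91.4), against 821 CPM (745 to 902) in AAA_7 and 430 CPM (380 to 486) in AAA_14. The S genes were at 339 (276 to 412), 1024 (940 to 1114) and 957 (880 to 1038) CPM. AAA_7 and AAA_14 lay above Sham in both groups of genes, with 78, 154 and 89 cells behind these sums. Only 1, 12 and 6 of these cells were dividing, and the intervals of those shares overlapped. Neutrophils were at 229, 214 and 197 CPM for the S genes, with overlapping intervals, and at 262 (217 to 314), 136 (117 to 157) and 471 (450 to 492) CPM for the G2/M genes. Ube2c, the ubiquitin-conjugating enzyme of mitotic exit, was at 26.7, 9.48 and 81.8 CPM there. Hmgb2 stood apart from the other members in neutrophils: it was at 1342, 605 and 1677 CPM, and in AAA_14 90.3% of neutrophils without a gate UMI had it, while Tubb5 had a UMI in 12.5% of them.

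The balance of S and G2/M genes was taken within dividing cells, as UMIs of the 14 S genes over UMIs of the 15 G2/M genes outside the gate. Over all dividing cells it was 1.35 (1.27 to 1.44) in Sham, 1.69 (1.59 to 1.78) in AAA_7 and 1.33 (1.31 to 1.35) in AAA_14. Cells with more G2/M than S UMIs made up 26.9%, 27.5% and 31.5% of dividing cells. T cells were at 1.44 (1.34 to 1.55), 1.97 (1.79 to 2.16) and 1.86 (1.77 to 1.94). Phagocytes were at 1.43 (1.25 to 1.65) in AAA_7 and 1.03 (0.965 to 1.10) in AAA_14, and AAA_14 B cells at 1.25 (1.22 to 1.28). At 2000 UMIs per cell the T cell ratios were 1.30, 1.31 and 1.26, so their gaps between libraries did not hold. Phagocytes were then at 0.560 (0.269 to 1.12) in AAA_7 and 0.783 (0.603 to 1.01) in AAA_14, in the opposite order and with overlapping intervals. AAA_14 B cells were at 1.14 (1.02 to 1.27). These UMIs come from few cells and are not independent, so the intervals are too narrow for a comparison of cells.

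Neutrophils of AAA_14 leaned to G2/M and dendritic cells to S. The ratio in neutrophils was 0.456 (0.413 to 0.503), and 22 of 30 dividing neutrophils had more G2/M than S UMIs (73.3%, 54.1 to 87.7), against 53 of 151 dividing B cells (35.1%, 27.5 to 43.3) and 21 of 84 T cells (25%, 16.2 to 35.6). With all UMIs the neutrophil interval did not overlap those of B and T cells. At 2000 UMIs per cell, 11 of 14 dividing neutrophils had more G2/M than S UMIs (78.6%, 49.2 to 95.3). That interval overlapped those of B cells (47.7%, up to 58.6) and T cells (37.8%, up to 55.2). Dendritic cells were at 2.08 (1.92 to 2.27), with 7 of 25 cells leaning to G2/M (28%, 12.1 to 49.4), but at 2000 UMIs per cell their ratio was 0.564 (0.319 to 0.975), so their lean changed side with depth, while that of neutrophils was 0.311 (0.186 to 0.502). In AAA_14 B cells, Pclaf had a UMI in 83.4% of dividing cells and 2.78% of cells without a gate UMI, Birc5 in 70.9% and 1.34%, and Ube2c in 68.2% and 1.91%. Pcna (88.7% and 34.6%), Tubb5 (97.4% and 67.0%) and Hmgb2 (96.7% and 61.5%) were common in both. Their levels were still higher in dividing cells, at 613 and 103 CPM for Pcna, 1632 and 298 for Tubb5 and 3716 and 273 for Hmgb2.

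**Figure D5:**
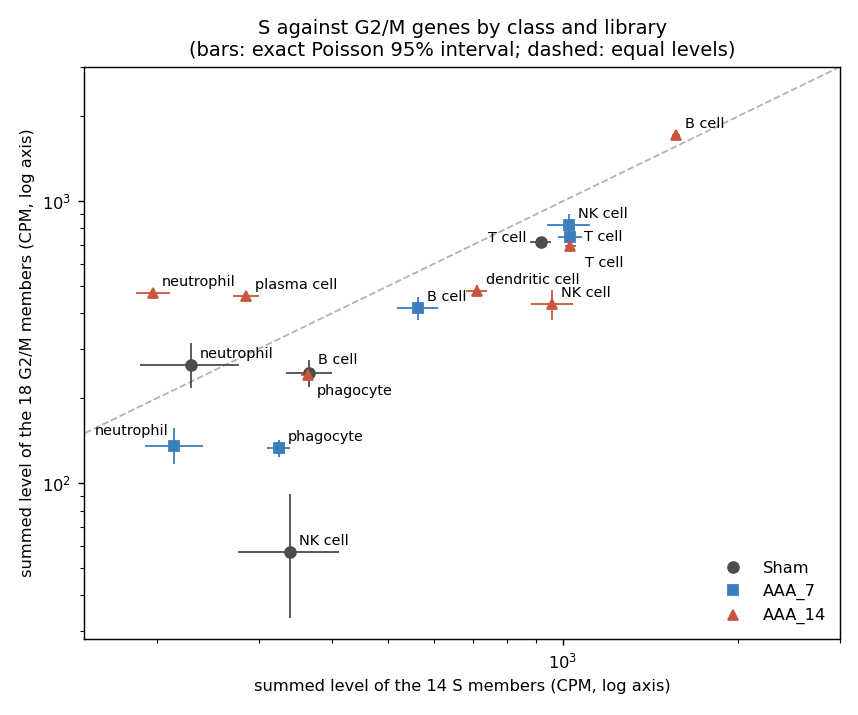
Summed level of the 18 G2/M genes (y axis, CPM, log scale) against that of the 14 S genes (x axis, CPM, log scale) for each class and library, with exact Poisson 95% bars and a dashed line of equal levels. B cells of AAA_14 are at the upper right (1564 and 1712 CPM), and neutrophils and plasma cells of AAA_14 lie above the line.

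Other genes of the cell cycle were counted as lists. In B cells of AAA_14 over Sham, 17 of 20 further replication genes and 23 of 25 further mitosis genes were at least 2-fold higher (medians 1.54 and 2.43). Of 8 G1 cyclins and kinases, 5 were higher, among them Ccnd3 at 53.2 and 131 CPM in Sham and AAA_14 (log2 ratio 1.29, 0.95 to 1.67), and of 12 E2F and DREAM regulators 6 were higher, with Foxm1 at 2.28 and 22.7 CPM (3.09, 1.75 to 5.60). Of 11 measured CDK inhibitors and p53 targets, 4 were higher and 0 lower, with a median of 0.05. These counts stand beside 22.1% of all genes higher. In T cells of AAA_14 over Sham, 3 of 20 replication and 3 of 25 mitosis genes were higher, shares below the 26.1% of all genes. In phagocytes of AAA_14 over AAA_7, 12 of 25 further mitosis genes and 0 of 20 replication genes were higher and 2 of the 20 lower, beside 8.15% of all genes higher and 3.96% lower. Of 12 CDK inhibitors and p53 targets measured there, 2 were higher and 2 lower. The lower ones were the CDK inhibitor Cdkn1a and Mdm2: Cdkn1a was at 757 CPM in AAA_7 and 291 in AAA_14 phagocytes (-1.38, -1.44 to -1.32), and Mdm2, also a p53 target, at 141 and 63.8 CPM (-1.14, -1.28 to -1.0).

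The replication-dependent histones, whose mRNAs mostly lack a poly(A) tail, did not follow the members in T and B cells compared with Sham. In T cells, 11 of 12 were at least 2-fold lower in AAA_14 than in Sham (median -1.81) and 8 of 12 in AAA_7 than in Sham, where 3.25% and 4.12% of all genes were lower, while 0 and 1 of the 14 S genes were. Hist1h1b was at 126, 32.4 and 15.5 CPM in Sham, AAA_7 and AAA_14 (log2 ratio -3.01, -3.34 to -2.70, for AAA_14 over Sham), and Hist1h2ae at 301, 60.3 and 49.7 CPM (-2.60, -2.79 to -2.41). Hist1h1d, by contrast, was at 22.7, 23.9 and 22.6 CPM. In B cells of AAA_14 over Sham, 4 of 12 histones were at least 2-fold lower and 1 higher, where 6.39% and 22.1% of all genes were. For AAA_14 over AAA_7 the picture differed: 7 of 12 were higher in B cells, 6 of 10 measured in phagocytes and 9 of 9 in neutrophils. Of all genes, 11.3%, 8.15% and 13.4% were higher there. In T cells of that pair 2 of 12 were higher and 4 lower, where 4.99% and 4.66% of all genes were. The kept T cells differed in median mitochondrial share, at 8.53%, 1.64% and 7.63%, and the part of capture or RNA quality in the histone values was not tested.

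Genes outside these lists with the highest ratio of CPM in dividing over other cells were, in T cells over the 3 libraries, Ncapg, Asf1b, Tacc3, Cks1b, Ncapg2, Fbxo5, Clspn, Ncapd2, Cenpw and Dtl. Ncapg, of the condensin complex, had 38, 31 and 134 UMIs in dividing T cells and 0, 2 and 6 in T cells without a gate UMI. In AAA_14 B cells they were Pbk, Kif4, Prr11, Ska3, Pif1, Mxd3, Stil, Neil3, BC030867 and Ncapg, led by Pbk, a mitotic kinase, with 192 UMIs in dividing cells and 0 in the others. In phagocytes of AAA_7 and AAA_14 they were Lockd, H2afx, Smc2, Atad2, Smc4, Tubb4b, Il6, Cks2, Hmgn2 and Tuba1b. Lockd had 32 and 60 UMIs in dividing and 7 and 11 in other phagocytes, and the place of Il6 rested on 1 AAA_7 cell with 97.5% of its UMIs there.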

How the data were processed

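The deposited values were UMI counts per gene and barcode from 3' v2 libraries; Cell Ranger 6.1.2 made them per the file headers, and the submitters' processing notes also name Seurat and mm10. The 32158 gene IDs (99.6% of 32285) found in GENCODE vM21 and the RefSeq promoters are of GRCm38. Barcodes with at least 200 genes and at most 10% mitochondrial UMIs were kept. A cell took the class with the highest marker score if at least 3 of its markers had a UMI and the next class scored at most 0.7 of it; this rule was set after seeing classes under several limits. No doublet caller was used for the main results, where barcodes with markers of 2 classes (104, 179 and 444) were set aside. Scrublet scores served in an alternative only. At fixed depth, the dividing share is the hypergeometric expectation over cells with at least 2000 or 1000 UMIs. Ratios are log2 CPM of summed counts with 0.5 counts added, over all genes with at least 10 UMIs; intervals are exact at 95%. Simulated data served to test the code. Members, lists and splits were chosen with earlier results of these data known. All 35 members are named or counted; genes outside the lists are the 10 with the highest dividing over non-dividing CPM (at least 30 UMIs and 20 dividing cells). Python 3.11.15, scipy 1.17.1, scanpy 1.11.5 and edgeR 4.0.16 (normalization factors only) were used. Alternatives were other mitochondrial, gene, gate, depth, doublet, class, scaling and count settings. One gene is left out and not reported here, and of the subset genes the text gives only some.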

Additional observations from a re-analysis of the deposited data

How the results depend on the processing

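Of 200 recomputed log2 odds ratios of the dividing share, 177 moved by less than their counting interval. The T cell value for AAA_14 over AAA_7 reversed when cells were thinned, to -0.063 at 1000 and -0.19 at 2000 UMIs; it was 3.49 at a mitochondrial limit of 5% and 1.70 with the gate of 4 of 29 other members. For all cells, AAA_7 over Sham was -1.02, 0.32 and 0.45 at mitochondrial limits of 5% and 20% and with none, and 0.20 at 1 gate UMI, and AAA_14 over AAA_7 was 2.21, 1.08, 0.92 and 1.03; thinned to 1000 and 2000 UMIs AAA_14 over Sham was 0.79 and 0.72 and AAA_14 over AAA_7 1.07 and 0.69. For B cells, AAA_14 over AAA_7 was 1.70 at a limit of 20%, 1.55 with none, 1.80 at 1 gate UMI and 1.26 at 2000 UMIs, and AAA_14 over Sham was 1.94 at 1 gate UMI and 1.87 without B cells with germinal-centre genes, an alternative chosen after seeing the data. For neutrophils, AAA_14 over AAA_7 was 0.14 at 2000 UMIs.

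The S over G2/M ratio of dividing cells in Sham, AAA_7 and AAA_14 was 1.19, 1.16 and 1.13 at 2000 UMIs, where AAA_7 no longer stood apart, and 1.50, 2.02 and 1.47 with the gate of other members; it was 1.29 in AAA_14 without the highest Scrublet scores. Cells with more G2/M than S UMIs were 37.0% (AAA_7) and 42.1% (AAA_14) at 2000 UMIs and 18.1% and 19.7% with the gate of other members.

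Of the 32 S and G2/M genes, the count at least 2-fold higher in B cells for AAA_7 over Sham was 7 both centred on the median gene and with TMM factors, 22 at a mitochondrial limit of 20%, 5 at 1000 UMIs and 4 without B cells with germinal-centre genes; for AAA_14 over AAA_7 it was 17, 20 and 20 in the last 3 of these settings. Of all genes, 18.3%, 17.9% and 16.4% were higher in these 3 settings for AAA_7 over Sham, and 8.45%, 8.93% and 7.85% for AAA_14 over AAA_7. Without those B cells, 4 ratios reversed: Top2a (-0.015), Ccna2 (-0.46) and Bub1b (-0.16) for AAA_7 over Sham, and Bub1 (-0.15) for AAA_14 over AAA_7. In T cells, AAA_14 over Sham had 0 higher and 3 lower with either other scaling, 3 higher at a limit of 20% and 1 lower at 1000 UMIs; AAA_7 over Sham had 0 lower with 5 counts added, at a limit of 20% and at 1000 UMIs, and 1 lower by cluster classes; AAA_14 over AAA_7 had 29 higher at a limit of 5% (13.99% of all genes), and 3 higher and 1 lower at 1000 UMIs. The limit of 5% kept a minority of AAA_14 T cells. In phagocytes 8 were higher by cluster classes and 8 without the top member cell of each library. The cause of these shifts was not tested. Scrublet's own threshold called 1, 0 and 3 cells and so did not work; its ranking alone was used to remove 12, 83 and 224 cells. The NK, Sham B cell and Sham neutrophil shares rest on at most 12 dividing cells each and have wide intervals. No paired analysis was possible because each group has 1 library, and no library could be left out.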
